A study of Mus musculus with 30 samples.

Results

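The genes described here are 35 genes of hepatic fatty acid oxidation, ketone body formation and the response to the nuclear receptor PPARA. They were chosen by symbol, 35 of the 14173 genes in the count table, and all 35 had a row and enough counts to be tested. They were sorted by role into mitochondrial entry (5 genes), mitochondrial beta-oxidation (8), handling of unsaturated acyl chains (3), electron transfer (3), peroxisomal steps (6), acyl-CoA thioesterases (6), ketone bodies (1) and other PPARA targets (3). The livers came from male C57BL6/J mice aged 6 months that had eaten their diet for 12 weeks and were fasted for 4 h, with 6 livers per diet and 1 library per liver. The casein control diet Cas-20%, with 20% casein, held 0.57 gm% methionine and 0.41 gm% cysteine, and the restricted diet Cas-5%, with 5% casein, held 0.15 and 0.1. The soy control diet Soy-20% + SAA, with 20% soy and sulfur amino acids added, held 0.58 and 0.41, the restricted diet Soy-10%, labelled as 11.5% soy, held 0.13 and 0.13, and the unsupplemented Soy-20% diet, with 20% soy, held 0.22 and 0.22. Before these diets the casein groups had been fed casein and the soy groups soy, so this earlier diet cannot be told apart from the protein source.

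In the liver, long-chain fatty acids are activated to acyl-CoA, passed into mitochondria as carnitine esters and shortened in a repeating cycle whose electrons reach the respiratory chain through the electron transfer flavoprotein. Peroxisomes take the very long and branched chains, thioesterases release free fatty acids from acyl-CoA, and the acetyl-CoA formed during fasting is made into ketone bodies. PPARA, activated by fatty acids, is the main transcriptional inducer of these steps in hepatocytes.

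Values are normalized counts, raw counts divided by a size factor for each library. They are not scaled for gene length, so levels are compared between diets and not between genes. Raw totals ran from 7694015 to 14565542 per library. All 8 hepatocyte markers were in the table, at a summed level of 67300 to 95900 CPM (a share of each library’s total, scaled alike) per library, against 217 to 518 for 7 Kupffer cell and macrophage markers and 204 to 292 for 5 sinusoidal endothelial markers. Pancreatic acinar markers summed to at most 55.7 CPM outside the Soy-10% diet, where 1 library reached 705. The casein diets did not overlap in the hepatocyte sum, 67300 to 75400 CPM in Cas-20% and 78900 to 95900 in Cas-5%, or in the endothelial sum, 204 to 244 and 263 to 292. Under casein restriction 2 of 8 hepatocyte markers were called higher and 3 lower, 1 of 5 endothelial, 1 of 5 stellate and 1 skeletal muscle marker higher, and 1 red blood cell, 1 adipocyte and 1 acinar marker lower. The part of these markers in the casein results was not tested. Of the adipocyte markers 2 of 6 were in the table, at 3.0 to 23.5 CPM in the casein diets and 9.94 to 102 in the soy diets. In whole tissue, fewer cells of a type and less RNA per cell cannot be told apart.

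Libraries within 3 diets stood apart in these genes, and the counts of called members that rest on them are given with and without them. In Cas-20%, livers 1 to 3 lay below livers 4 to 6 without overlap in 27 of the 35 members and above them in 0. Among all 12076 genes tested, 10.9% lay below and 11.1% above. In Soy-20% + SAA, libraries 3 to 6 had counts that rose with GC near the 3′ end of the transcript (its last 200 bases), by 0.0597 to 0.2254 log2 units per 10 percentage points of GC, against −0.0768 to 0.0422 in the other 26 libraries. In Soy-20%, liver 3 was the highest of its diet in 26 of 35 members, and in 18.6% of 11897 genes. Total counts did not set the Cas-20% livers apart, with 11043633 to 11910981 in livers 1 to 3 and 10222878 to 11512992 in livers 4 to 6. Their GC slopes also overlapped, −0.0215 to 0.0422 against −0.036 to −0.014. Livers 1 to 3 were below livers 4 to 6 in the 2 adipocyte markers tested of 6 listed (*Cfd* and *Cidec*). They were also below in 2 of 5 stellate markers (*Des* and *Reln*). They were above in 3 of 8 hepatocyte markers (*Apoa1*, *Cps1* and *Tat*) and in 1 of the 2 cholangiocyte markers tested of 5 listed. None of the 7 Kupffer cell, 5 endothelial or 5 red blood cell markers split this way. The part of these markers in the split was not tested.

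**Figure D1:**
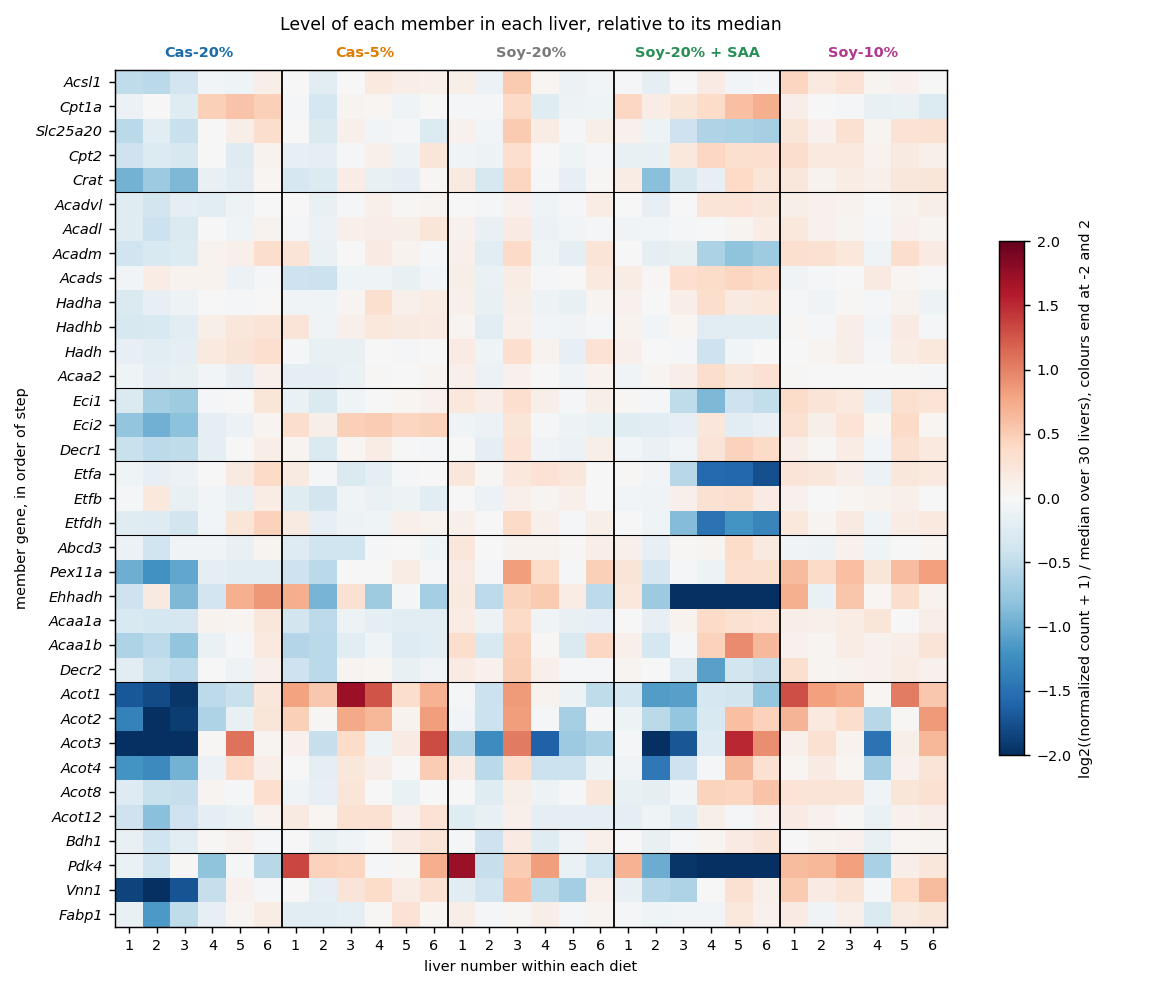
Colour gives the log2 ratio of each member's normalized count plus 1 to its median over 30 livers, with members in rows ordered by step and livers 1 to 6 of each diet in columns. Cas-20% livers 1 to 3 are low in 27 members, Soy-20% liver 3 is the highest of its diet in 26, and Soy-20% + SAA libraries 3 to 6 are low in *Etfa*, *Etfdh*, *Ehhadh* and *Pdk4*.

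Casein restriction was examined first, as Cas-5% against Cas-20%. Of the acyl-CoA thioesterases 3 of 6 rose, as did an isomerase of unsaturated chains, while most enzymes of mitochondrial and peroxisomal oxidation did not pass the test. By edgeR's quasi-likelihood test with Benjamini-Hochberg adjustment over all genes at 0.05, 7 of 35 members were higher and 0 were lower, where 11.4% of the 12076 genes tested were higher and 13.2% were lower. At an unadjusted p under 0.05 there were 13 of 35 members, 11 of them higher, and 4366 of 12076 genes. The median log2 fold change was 0.18 over the members and 0.02 over all genes. Of 35 members, 26 had a positive log2 fold change, a count whose share over all genes was not computed. With the GC slope of each library as a covariate 4 members were called, *Acot1*, *Acot12* and *Eci2* higher, where 9.88% of genes were higher, and *Etfa* lower, where 11.8% were lower.

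*Acot1*, a cytosolic thioesterase induced through PPARA, moved most. Its lowest, median and highest normalized counts were 112.5, 218 and 509 in Cas-20% livers and 557, 735 and 1420.3 in Cas-5% livers, with no overlap. Its log2 fold change was 1.79 ± 0.41, adjusted p = 0.0092, and it was called in 12 of 12 fits that left out 1 liver. *Acot2*, its mitochondrial neighbour in the same gene cluster, had 42.5, 104 and 238 in Cas-20% and 203, 298.5 and 360.0 in Cas-5%, and the diets overlapped. The log2 fold change of *Acot2* was 1.26 ± 0.38, adjusted p = 0.035, and the call was lost without any 1 of Cas-20% livers 1 to 4 or Cas-5% livers 1, 3, 4 or 6, with adjusted p from 0.053 to 0.073. *Acot12*, which cleaves acetyl-CoA, had 434, 630.1 and 811 in Cas-20% and 792, 916 and 959.5 in Cas-5%. Its log2 fold change was 0.52 ± 0.11, adjusted p = 0.0028, with only the highest Cas-20% liver reaching into the Cas-5% range. *Acot4*, a peroxisomal thioesterase, had a log2 fold change of 0.51 ± 0.28, adjusted p = 0.23, and *Acot8* one of 0.11 ± 0.12, adjusted p = 0.55. Together 3 of the 6 thioesterases were called higher and 0 lower.

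*Eci2* rose by a log2 fold change of 0.83 ± 0.17, adjusted p = 0.0028. This enoyl-CoA isomerase moves the double bond of unsaturated chains so that oxidation can go on. Its counts were 937, 1343.5 and 1899 (lowest, median, highest) in Cas-20% and 1997, 2496 and 2619.9 in Cas-5%, with no overlap, and it was called in 12 of 12 fits that left out 1 liver. Its partners did not pass the test, with 0.15 ± 0.14, adjusted p = 0.48 for *Eci1* and 0.23 ± 0.11, adjusted p = 0.14 for *Decr1*, the dienoyl-CoA reductase. *Eci2* and *Acot1* were the 2 members of 35 without overlap between the diets, where 12.9% of all genes tested had none.

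In the mitochondrial cycle the changes were small. *Acadvl* and *Acadl*, the dehydrogenases of very long and long chains, rose by 0.20 ± 0.07, adjusted p = 0.044 and 0.24 ± 0.08, adjusted p = 0.042 on the log2 scale. The call of *Acadvl* was lost without any 1 of Cas-20% livers 1 to 5 or Cas-5% livers 1 or 3 to 6, with adjusted p from 0.051 to 0.11. That of *Acadl* was lost without any 1 of Cas-20% livers 1, 2, 3 or 5 or Cas-5% livers 3 to 6, with adjusted p from 0.055 to 0.1. *Acadm* and *Acads*, for medium and short chains, had log2 fold changes of 0.12 ± 0.11, adjusted p = 0.48 and -0.20 ± 0.08, adjusted p = 0.068. *Acads* was called lower by DESeq2 (adjusted p = 0.048) and by edgeR without Cas-20% liver 5 (0.045), without Cas-5% liver 6 (0.048) and with all 30 livers in 1 fit. *Hadha*, the alpha subunit of the trifunctional protein, had 0.19 ± 0.08, adjusted p = 0.085. The 8 members of the cycle ranged from −0.20 to 0.24, with 2 called higher.

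None of the 5 entry genes was called by edgeR, and *Cpt1a*, the carnitine palmitoyltransferase that controls entry, had the lowest log2 fold change of them, -0.27 ± 0.13, adjusted p = 0.17. *Cpt1a* was called lower without Cas-20% liver 3, with an adjusted p of 0.042. *Acsl1*, which activates long chains, had 0.27 ± 0.11, adjusted p = 0.073 and was called higher without Cas-20% liver 6 or Cas-5% liver 2, with adjusted p of 0.017 and 0.044. *Slc25a20*, the carnitine-acylcarnitine carrier, and *Cpt2* had 0.02 ± 0.13 and 0.19 ± 0.09. The 3 electron transfer genes ranged from −0.17 to 0.03 and the 6 peroxisomal genes from −0.22 to 0.47, and edgeR called 0 of either group. *Pex11a*, which acts in peroxisome division and is a PPARA target, had the highest of the peroxisomal values, 0.47 ± 0.21, adjusted p = 0.14. *Bdh1*, which interconverts the ketone bodies, had 0.16 ± 0.09, adjusted p = 0.22.

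Among the other PPARA targets, *Pdk4*, the kinase that turns off pyruvate dehydrogenase, was higher, with 20.3, 30.2 and 36.8 normalized counts (lowest, median, highest) in Cas-20% and 35.5, 49.8 and 93 in Cas-5%. Its log2 fold change was 0.88 ± 0.23, adjusted p = 0.0082, called in 12 of 12 fits that left out 1 liver. *Vnn1*, a pantetheinase, had 129.7, 319 and 661 in Cas-20% and 548, 714 and 798 in Cas-5%, and its log2 fold change of 0.93 ± 0.40, adjusted p = 0.12 did not pass. *Fabp1*, the abundant fatty acid binding protein of hepatocytes, had 0.21 ± 0.18, adjusted p = 0.43.

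The size of these changes turned on which Cas-20% livers served as controls. In livers 1 to 3, *Acot1* ran from 112.5 to 134 normalized counts, and in livers 4 to 6 from 301 to 509. *Vnn1* ran from 129.7 to 186 in livers 1 to 3 and from 452 to 661 in livers 4 to 6, against 548 to 798 in Cas-5%. *Acot3*, a peroxisomal thioesterase chosen after its values were seen, ran from 12.3 to 26, then from 188 to 395, against 134.5 to 461 in Cas-5%. Without livers 1 to 3, 3 members were higher (*Acot12*, *Eci2* and *Pdk4*) and 4 lower (*Cpt1a*, *Hadh*, *Acaa1a* and *Acaa1b*), where 9.08% of genes were higher and 11.8% lower. Without livers 4 to 6, 22 members were higher and 0 lower, where 9.44% of genes were higher and 11.7% lower. The median log2 fold change over the members was −0.04 without livers 1 to 3 and 0.38 without livers 4 to 6, while that over all genes was 0.02 and 0.01. These fits were chosen after the values were seen, and the livers were set apart by these same genes, so their p-values describe how far the calls depend on those livers and are not independent tests.

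*Eci2* and *Acot12* were called higher against either set of Cas-20% livers. Without livers 1 to 3 their log2 fold changes were 0.48 and 0.29, with adjusted p of 0.00078 and 0.025. Without livers 4 to 6 they were 1.26 and 0.76, with adjusted p of 3.8e-08 and 4.2e-05. *Acot1* had 1.19 (adjusted p = 0.058) without livers 1 to 3 and 2.79 (adjusted p = 0.0012) without livers 4 to 6. *Cpt1a* was called only in the first of these fits, at -0.55 (adjusted p = 0.00012), and stood at 0.07 in the second. The calls of *Acot2*, *Acadl* and *Acadvl* were lost without livers 1 to 3, at 0.65 (adjusted p = 0.089), 0.09 (adjusted p = 0.5) and 0.11 (adjusted p = 0.37). *Pdk4* did not follow the split, with 27.4 to 36.8 normalized counts in livers 1 to 3 and 20.3 to 35.8 in livers 4 to 6. Its log2 fold change was 1.01 (adjusted p = 0.034) without the first set and 0.74 (adjusted p = 0.077) without the second. All of these adjusted p-values are from edgeR.

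**Figure D2:**
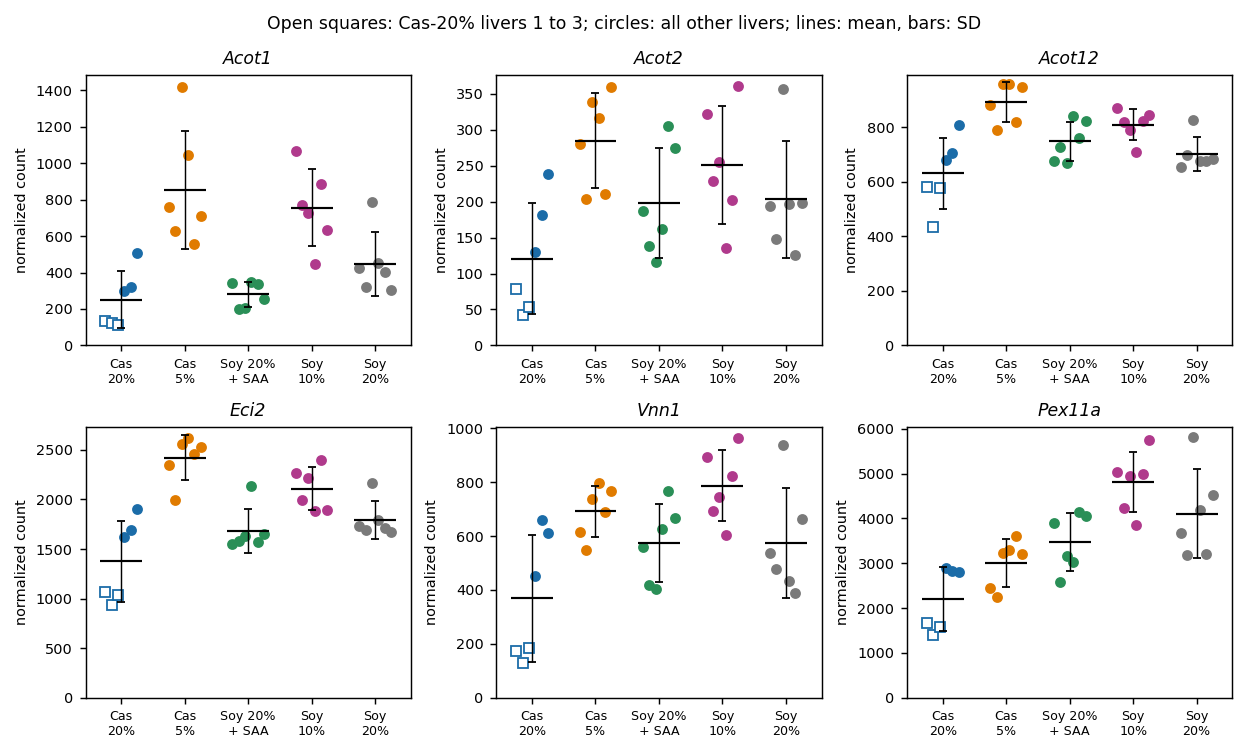
Normalized counts of 6 members in each liver of the 5 diets, with lines for the mean and bars for the SD of 6 livers. Cas-20% livers 1 to 3, drawn as open squares, lie below Cas-20% livers 4 to 6 in all 6 panels, and the Cas-5% livers of *Acot1* and *Eci2* lie above all 6 Cas-20% livers.

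Soy restriction was then compared with the soy control that had sulfur amino acids added, as Soy-10% against Soy-20% + SAA. *Acot1* rose again, and enzymes from several mitochondrial steps were higher, while *Cpt1a* and *Acads* fell. By edgeR 7 of 35 members were higher, where 7.44% of 11983 genes were higher, and 2 were lower, where 8.25% were lower. At an unadjusted p under 0.05 there were 17 of 35 members, 13 of them higher, and 4009 of 11983 genes. The median log2 fold change was 0.11 over the members and −0.01 over all genes. *Cpt1a*, *Decr2* and *Acot1* had no overlap between the diets, against 6.22% of all genes tested.

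*Acot1* had 199.9, 295 and 346 normalized counts (lowest, median, highest) in Soy-20% + SAA and 447, 747 and 1066 in Soy-10%, a log2 fold change of 1.42 ± 0.21, adjusted p = 0.0016. Every Soy-10% liver lay above every Soy-20% + SAA liver. The other thioesterases did not pass the test, from −0.15 for *Acot3* to 0.34 for *Acot2*. *Pex11a* had 2580.4, 3530.2 and 4134 in Soy-20% + SAA and 3856.5, 4969 and 5756 in Soy-10%, with overlap and a log2 fold change of 0.46 ± 0.12, adjusted p = 0.02. *Eci2* had 1552, 1606 and 2134 and 1879, 2104 and 2402, and its log2 fold change was 0.32 ± 0.09, adjusted p = 0.027. The call of *Eci2* was lost without any 1 of Soy-20% + SAA livers 3, 5 or 6 or Soy-10% livers 1, 3 or 5, with adjusted p from 0.054 to 0.067.

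*Slc25a20* had 1030.1, 1151 and 1738 in Soy-20% + SAA and 1706, 1962 and 2026 in Soy-10%, a log2 fold change of 0.57 ± 0.12, adjusted p = 0.0073. *Acadm* and *Eci1* rose by 0.59 ± 0.14, adjusted p = 0.011 and 0.57 ± 0.14, adjusted p = 0.015 on the log2 scale. *Etfdh*, which hands electrons from the flavoprotein to ubiquinone, rose by 0.83 ± 0.25, adjusted p = 0.047, and its call was lost in 10 of 12 fits that left out 1 liver, all but those without Soy-20% + SAA liver 1 or 2, with adjusted p from 0.059 to 0.099. *Cpt1a* had 2153, 2555.5 and 3231 in Soy-20% + SAA and 1607, 1848 and 2150.4 in Soy-10%, a log2 fold change of -0.50 ± 0.10, adjusted p = 0.005. *Acads* fell by 0.27 ± 0.08 (adjusted p = 0.029), a call lost without any 1 of Soy-20% + SAA livers 3 to 6 or Soy-10% livers 1, 2, 3, 5 or 6, with adjusted p from 0.054 to 0.069. *Ehhadh*, the bifunctional enzyme of peroxisomal oxidation, had the largest value of all 35 members, 1.66 ± 0.59, adjusted p = 0.078, which did not pass. *Pdk4* had 1.55 ± 0.59, adjusted p = 0.089, *Etfa* 0.88 ± 0.32, adjusted p = 0.082 and *Vnn1* 0.45 ± 0.16, adjusted p = 0.071. Without Soy-20% + SAA liver 1 edgeR called 15 members, *Ehhadh*, *Pdk4* and *Etfa* among them, with adjusted p of 0.0059, 0.00027 and 0.028. In that fit 25.3% of all genes were called.

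Several of these members stood apart in 4 control libraries. *Ehhadh* stood at 68.0 to 109.4 normalized counts in Soy-20% + SAA libraries 3 to 6 and at 297.9 to 1037.6 in the other 26 libraries. *Etfdh* ran from 506 to 769 in those 4 and from 1092 to 1928 in the others, and *Etfa* from 653 to 1498 and from 1803.5 to 2882.5. *Pdk4* ran from 3.9 to 8.7 and from 17.7 to 122.4. These 4 members, 11.4% of 35, lay below the other 26 libraries without overlap, as 5.66% of all genes did. The last 200 bases of their transcripts had a GC content of 26.5% for *Ehhadh*, 41.6% for *Etfdh*, 38.4% for *Etfa* and 41.8% for *Pdk4*. *Acads*, at 61.6%, and *Acaa2*, at 43.0%, lay above the other 26 libraries in the same 4.

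Without those 4 libraries, which left 2 controls, edgeR called 1 member higher (*Eci2*) and 0 lower, where 2.65% of genes were called. In that fit 14 members and 1936 of 12483 genes had an unadjusted p under 0.05. With each library's GC slope as a covariate edgeR called 0, where 2.78% of genes were called. In this second fit 16 members and 2052 of 11983 genes had an unadjusted p under 0.05. There 30 of 35 members were positive, a count whose share over all genes was not computed. DESeq2 on all libraries called 11 higher, where it called 8.72% of genes higher, and 3 lower, where it called 7.81% lower. Without the 4 libraries, the log2 fold changes of *Acot1*, *Pex11a* and *Eci2* were 1.46, 0.56 and 0.42, near the values with them. Those of *Etfdh*, *Slc25a20*, *Eci1* and *Acadm* were 0.16, 0.21, 0.21 and 0.29, against 0.57 or more with them. *Cpt1a* stood at -0.36 (adjusted p = 0.066) and *Acads* at -0.07 (adjusted p = 0.74).

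**Figure D3:**
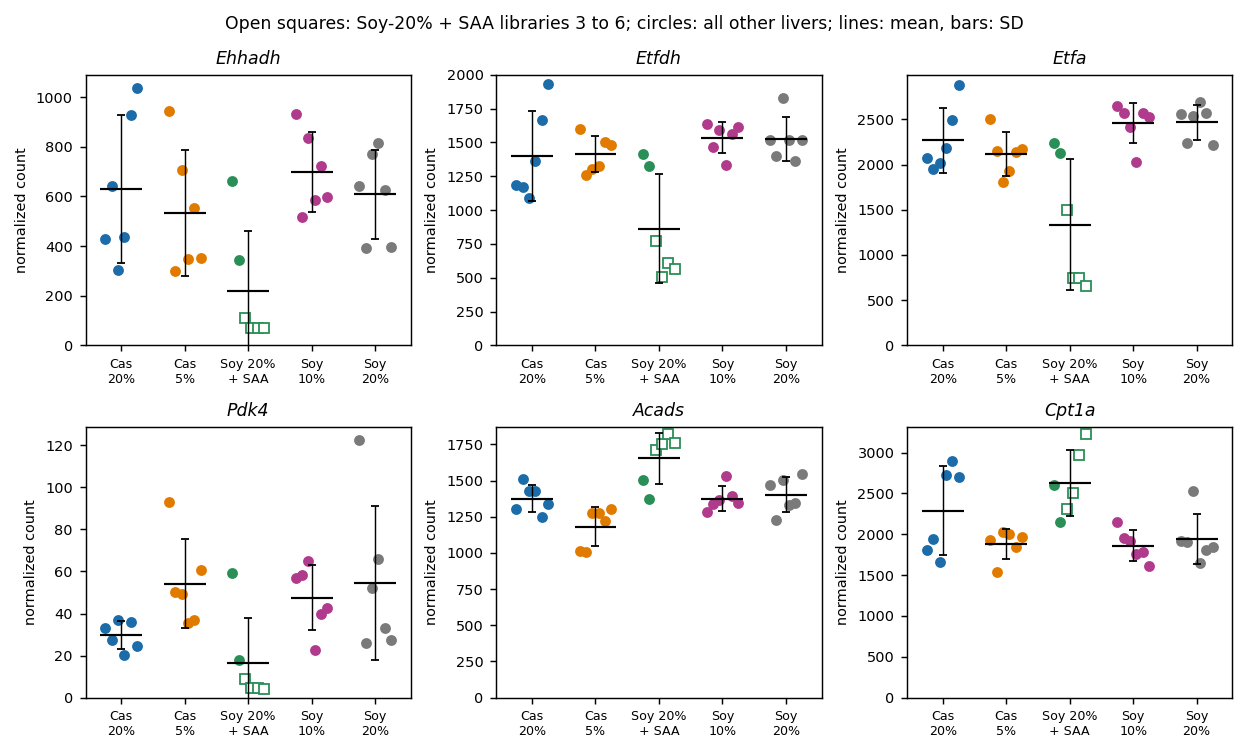
Normalized counts of 6 members in each liver of the 5 diets, with lines for the mean and bars for the SD of 6 livers. Soy-20% + SAA libraries 3 to 6, drawn as open squares, lie below all other libraries in *Ehhadh*, *Etfdh*, *Etfa* and *Pdk4* and above them in *Acads*, and their *Cpt1a* values overlap those of other livers.

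Soy-20%, with less methionine than Soy-20% + SAA, gave a second control for soy restriction. Against it, edgeR and DESeq2 each called 0 members in Soy-10%, where edgeR called 1.0% of 11897 genes. By edgeR 5 members, all higher, and 1413 genes in either direction had an unadjusted p under 0.05. *Acot1* had 304, 413 and 787 normalized counts (lowest, median, highest) in Soy-20%, and its log2 fold change in Soy-10% was 0.75 ± 0.27, adjusted p = 0.28. *Eci2* and *Acot12* had 0.23 ± 0.08, adjusted p = 0.18 and 0.20 ± 0.07, adjusted p = 0.18. *Slc25a20*, *Acadm*, *Eci1* and *Etfdh* stood at 0.07, 0.16, 0.07 and 0.01, and *Cpt1a* at -0.06 ± 0.09. *Ehhadh* had 0.20 ± 0.22, with 393 to 815 normalized counts in Soy-20% and 516 to 930.0 in Soy-10%. Without Soy-20% liver 3, *Eci2* and *Acot12* were called higher, with adjusted p of 0.039 and 0.044, where 1.24% of genes were called. In that fit 16 members, all higher, and 1483 of 11994 genes in either direction had an unadjusted p under 0.05. Liver 3 was singled out as high in these same members, so leaving it out raises their fold changes by construction. The fit shows how far the calls depend on that liver and is not an independent test. That liver held 787 normalized counts of *Acot1*, where the other 5 held 304 to 455.

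Adding sulfur amino acids to the Soy-20% diet gave 0 called members by edgeR, where 0.545% of 11932 genes were called. DESeq2 called *Cpt1a* higher and *Slc25a20*, *Eci1*, *Etfdh* and *Acot1* lower, where it called 6.16% of genes. By edgeR 12 members and 2820 of 11932 genes had an unadjusted p under 0.05. Leaving out Soy-20% + SAA liver 1 gave 9 called members, where 12.5% of genes were called, and leaving out liver 2 gave 5, where 7.26% were called. Leaving out libraries 3 to 6 gave 0, where 0.0% of genes were called, with 1 member and 821 of 12396 genes at an unadjusted p under 0.05. In Soy-10%, Soy-20% and Soy-20% + SAA, in order of rising methionine, *Acot1* had means ± SD of 755 ± 212, 449 ± 176 and 280.3 ± 69.7 (n = 6 each). Neither step of that order passed the test for *Acot1* alone, at adjusted p of 0.28 for Soy-10% against Soy-20% and 0.12 for Soy-20% + SAA against Soy-20%. Among all members, the means of 13 fell in that order, those of 6 rose and those of 16 did neither. The shares over all genes were not computed, so these counts do not set the members apart. Soy-20% + SAA libraries 3 to 6 and Soy-20% liver 3, which stood apart, entered these means. Cysteine rose in the same order, and Soy-10% held less soy (11.5% against 20%), so methionine cannot be told apart from these.

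**Figure D4:**
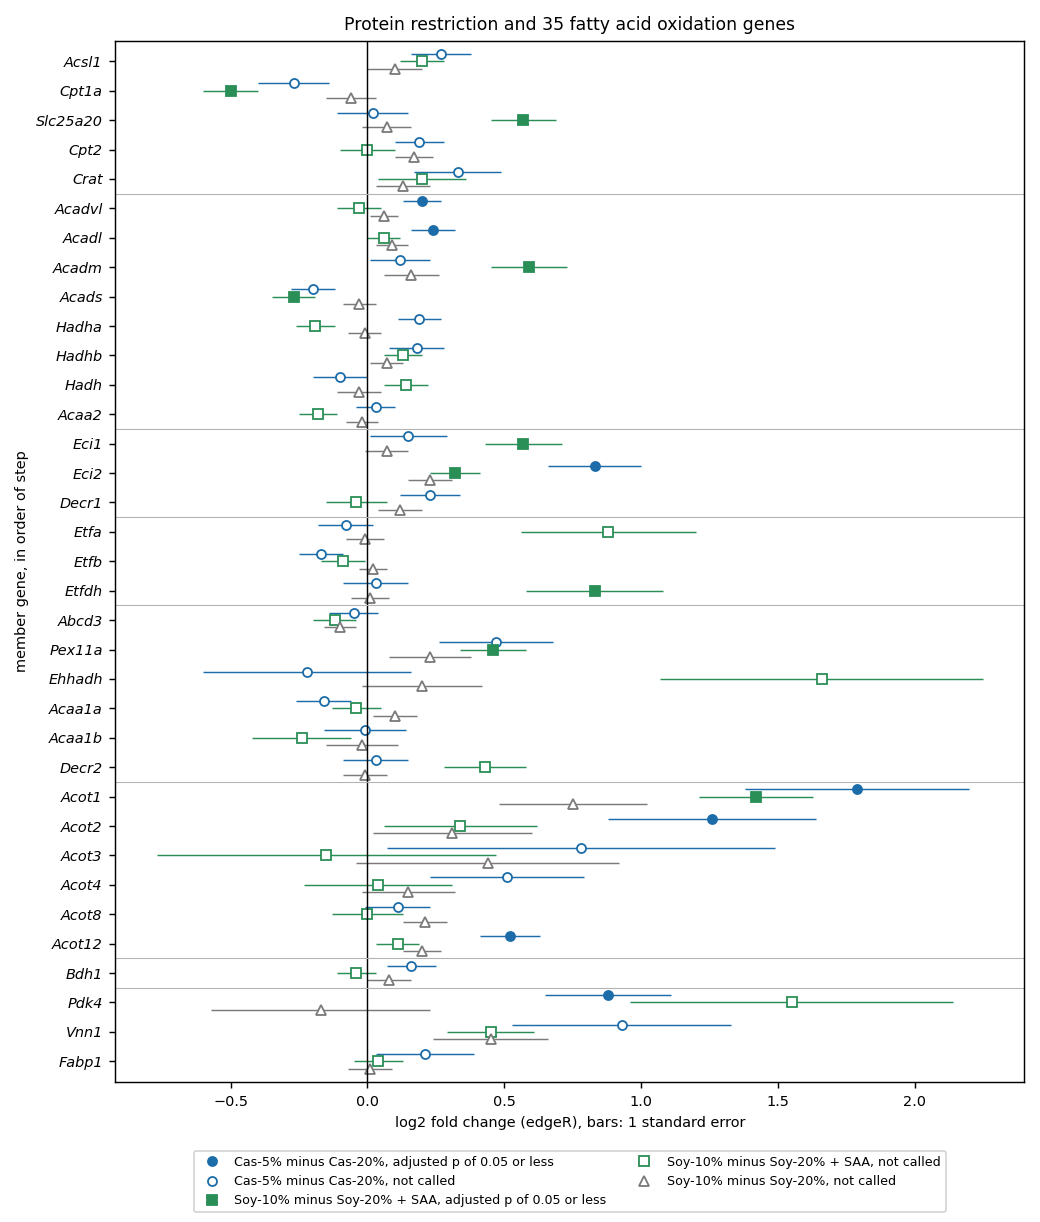
Log2 fold changes of the 35 members by edgeR with bars of 1 standard error, for casein restriction (circles), soy restriction against Soy-20% + SAA (squares) and against Soy-20% (triangles). Filled symbols passed an adjusted p of 0.05, 7 in the casein and 9 in the first soy comparison and 0 in the second.

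**Figure D5:**
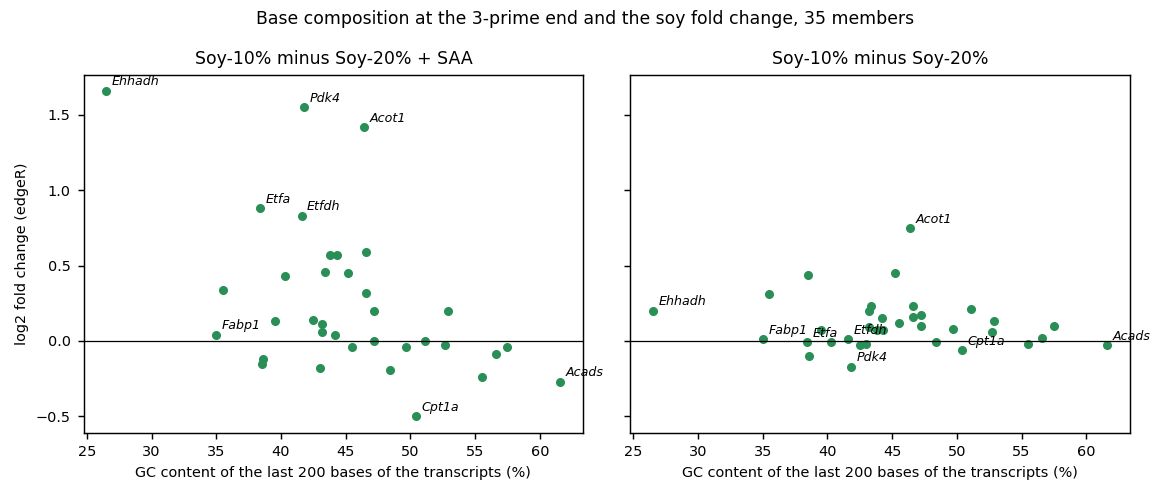
Each point is 1 of 35 members, with the GC content of its transcript 3′ ends in percent on the horizontal axis and the soy log2 fold change on the vertical axis. Against Soy-20% + SAA the fold change fell as GC rose (Pearson r = −0.499 across genes), and against Soy-20% it did so less (r = −0.117).

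Across the 35 members the log2 fold change against Soy-20% + SAA fell as the GC content of the 3′ end rose, with Pearson's r of −0.499 and Spearman's rho of −0.458. The same across 11916 genes was −0.23 and −0.252, and against Soy-20% the members gave −0.117 and −0.017. These describe genes of the same libraries, which are not independent replicates.

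The casein effect was set against the soy effect in 1 fit of 24 livers. Of 35 members, 26 had the same sign in both restriction comparisons, 20 positive and 6 negative. The share over all genes was not computed, so this count does not set the members apart. By edgeR, 1 member differed, where 8.16% of 12532 genes did, and 10 members and 3209 genes had an unadjusted p under 0.05. That member was *Hadha*, with 2899, 3412 and 3562.5 normalized counts (lowest, median, highest) in Cas-20%, 3344, 3753 and 4450.1 in Cas-5%, 3524, 3976 and 4554 in Soy-20% + SAA and 3301, 3460.4 and 3722 in Soy-10%. Its log2 fold change was 0.19 ± 0.08 for casein and -0.19 ± 0.07 for soy, a difference of 0.38 ± 0.10, adjusted p = 0.024. *Hadha* was not called without Soy-20% + SAA libraries 3 to 6, at 0.25 (adjusted p = 0.3), nor with the GC slope as a covariate (adjusted p = 0.1), nor with Soy-20% as the soy control (adjusted p = 0.28). *Acot1* had a difference of 0.36 ± 0.47, adjusted p = 0.68, *Eci2* 0.50 ± 0.19, adjusted p = 0.1 and *Acot12* 0.40 ± 0.14, adjusted p = 0.075. The number of members called rose to 8 without Soy-20% + SAA liver 1, where 15.1% of genes were called, and to 4 without liver 2, where 12.4% were. It rose to 3 without Cas-20% liver 6, where 5.87% of genes were called, and to 2 without Cas-20% liver 1 (7.23%) or 3 (7.33%). Without Cas-20% livers 1 to 3 together, *Hadha* was not called and 4 others were, *Slc25a20*, *Acadm*, *Hadh* and *Eci1*, all with the casein effect below the soy effect, where 7.07% of genes were called. Those livers were set apart by these same genes, so that fit is not an independent test.

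The restricted diets Cas-5% and Soy-10% were compared with each other, a comparison that uses none of the control libraries that stood apart. The 2 diets were close in methionine but differed in protein source and in protein content, 5% and 11.5%. Of the 6 peroxisomal members 3 were lower in Cas-5% than in Soy-10%, and 4 mitochondrial members were lower as well. Of 35 members 0 were higher, where 4.62% of 12041 genes were higher, and 7 were lower, where 6.13% were lower. DESeq2 called 0 higher and 8 lower, where it called 6.35% of genes lower. By edgeR 15 members, 2 of them higher, and 2970 of 12041 genes had an unadjusted p under 0.05. The median log2 fold change was −0.12 over the members and 0.01 over all genes.

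*Pex11a* had 2244, 3211 and 3602 normalized counts (lowest, median, highest) in Cas-5% and 3856.5, 4969 and 5756 in Soy-10%, with no overlap and a log2 fold change of -0.66 ± 0.12, adjusted p = 0.0027. Its log2 fold change for Cas-20% against Soy-20% + SAA was the same by edgeR, -0.66 ± 0.20, adjusted p = 0.082, so this gap was not particular to the restricted diets. *Acaa1a* and *Acaa1b* encode the peroxisomal thiolases. *Acaa1a* had 639, 788 and 859.5 in Cas-5% and 918, 1013 and 1092 in Soy-10%, a log2 fold change of -0.38 ± 0.07, adjusted p = 0.001. *Acaa1b*, outside the rule for named genes and chosen after its values were seen, had 8585, 10866 and 12044 and 13264, 13872 and 15300.4, with -0.41 ± 0.08, adjusted p = 0.0012. Neither thiolase overlapped between the diets. Of the 50-base stretches in the last 500 bases of their transcripts, 31.6% of those of *Acaa1a* and 38.8% of those of *Acaa1b* also occurred in another gene, mostly each in the other, so reads may have been shared between them. *Decr2*, the peroxisomal dienoyl-CoA reductase, had no overlap either and -0.27 ± 0.09, adjusted p = 0.052, and it was called without Cas-5% liver 3 or 4, with adjusted p of 0.026 and 0.033. *Ehhadh* had -0.36 ± 0.30, adjusted p = 0.5 and *Abcd3*, a transporter of the peroxisomal membrane, -0.15 ± 0.07, adjusted p = 0.21. All 6 members sorted under peroxisomal steps had a negative log2 fold change, from −0.66 to −0.15, and 3 were called. The direction holds for the group as sorted. *Acot3* and *Acot4*, peroxisomal but sorted with the thioesterases, had higher means in Cas-5%, 235.4 against 196.9 and 174.9 against 161.0. *Eci2*, also an isomerase of peroxisomes but sorted under unsaturated chains, had a higher mean too, 2419.9 against 2108.5. Its log2 fold change was 0.22 ± 0.08, adjusted p = 0.067, called higher without Cas-5% liver 2 (0.02) or Soy-10% liver 5 (0.039). *Acot8*, likewise a peroxisomal thioesterase, had a lower mean, 271.9 against 318.7.

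The other 4 members called lower in Cas-5% were mitochondrial. *Slc25a20* had -0.28 ± 0.07, adjusted p = 0.016 and was called in 12 of 12 fits that left out 1 liver. *Etfb*, a subunit of the electron transfer flavoprotein, had -0.22 ± 0.06, adjusted p = 0.023, lost without Cas-5% liver 2 (adjusted p = 0.057). For *Etfb*, 58.1% of the 50-base stretches at the 3′ end also occurred in another gene, mostly *Gm45233*. *Eci1* had -0.26 ± 0.08, adjusted p = 0.036, lost in 9 of 12 fits that left out 1 liver, all but those without Cas-5% liver 5 or 6 or Soy-10% liver 4, with adjusted p from 0.054 to 0.087. *Crat*, the carnitine acetyltransferase and likewise chosen after its values were seen, had -0.27 ± 0.08, adjusted p = 0.034, lost in 8 of 12, all but those without Cas-5% liver 3 or 6 or Soy-10% liver 2 or 4, with adjusted p from 0.055 to 0.075. *Etfb*, *Pex11a*, *Acaa1a*, *Acaa1b* and *Decr2* had no overlap between the diets, 5 of 35 members where 5.86% of all genes tested had none. The thioesterases were not called, with 0.20 ± 0.27, adjusted p = 0.71 for *Acot1* and 0.16 ± 0.07, adjusted p = 0.14 for *Acot12*. With all 30 livers in 1 fit, 2 members were called lower in place of 7, where 4.23% of genes were lower.

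The control diets Cas-20% and Soy-20% + SAA gave 0 called members by edgeR, where 2.34% of 11988 genes were called. By edgeR 12 members and 3078 genes had an unadjusted p under 0.05. DESeq2 called 7 members lower in Cas-20%, where it called 3.27% of genes lower, *Pex11a* and *Acaa1b* with the largest log2 fold changes of the 7. By edgeR, *Pex11a* had -0.66 ± 0.20, adjusted p = 0.082 and *Acaa1b* -0.64 ± 0.23, adjusted p = 0.11. Without Soy-20% + SAA liver 1 edgeR called 8 members, where 14.6% of genes were called, and without liver 2 it called 6, where 9.53% were. Without Soy-20% + SAA libraries 3 to 6 it called 0, where 0.016% of genes were called, with a median of −0.09 against −0.24 with them. In that fit 0 members and 897 of 12498 genes had an unadjusted p under 0.05. Without Cas-20% livers 1 to 3 edgeR called 0, where 0.154% of genes were called, with a median of 0.01. In this second fit 8 members and 2384 of 12351 genes had an unadjusted p under 0.05. With Soy-20% in place of Soy-20% + SAA, a comparison added after the data were seen, edgeR again called 0, where 1.33% of genes were lower in Cas-20%. In that comparison 32 of 35 members were negative, a count whose share over all genes was not computed. An unadjusted p under 0.05 was found for 11 members, all lower, and for 2133 of 11875 genes in either direction. Cas-20% livers 1 to 3, set apart as low in these same members, and Soy-20% liver 3, set apart as high, entered this comparison. Leaving out either raises most of the members' fold changes by construction. The fit without them therefore shows only how far the direction depends on them and is not an independent test. In that fit 14 of 35 members were negative, again without a share over all genes. There 5 members and 2083 of 12155 genes had an unadjusted p under 0.05. It called 1 member, *Cpt1a*, higher in Cas-20%, where 2.79% of genes were called.

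The wider pathway was read from lists of genes outside the 35. Of 10 genes for PPARA and its partners, casein restriction raised 1 and lowered 3, where 11.4% of all genes rose and 13.2% fell. Soy restriction raised 0 and lowered 2, where 7.44% of all genes rose and 8.25% fell. *Ppara* itself had 2064, 2345 and 3538 normalized counts (lowest, median, highest) in Cas-20% and 1512, 2105 and 2679 in Cas-5%, a log2 fold change of -0.29 ± 0.17, adjusted p = 0.24. In soy it fell by 0.52 ± 0.11 (adjusted p = 0.006), which was -0.37 (adjusted p = 0.23) without Soy-20% + SAA libraries 3 to 6. *Ncor1*, a corepressor of nuclear receptors, rose under casein restriction, 0.39 ± 0.08, adjusted p = 0.00085, and *Ppargc1b*, a coactivator, fell, -0.48 ± 0.13, adjusted p = 0.0088, a call lost without Cas-20% livers 4 to 6 (adjusted p = 0.12). Of 12 other PPARA targets, casein restriction raised 2 (*Cyp4a14* and *Fgf21*) and lowered 2. Soy restriction raised 2 (*Slc22a5* and *Fgf21*) and lowered 2 of the 11 tested, against the same shares of all genes. Without Cas-20% livers 1 to 3, casein restriction raised 3 of the 12 and lowered 4, where 9.08% of genes rose and 11.8% fell. Without livers 4 to 6 it raised 6 and lowered 2, where 9.44% rose and 11.7% fell. The median log2 fold changes of the 12 were 0.11 and 0.86 in these fits. *Fgf21*, which encodes a hepatic hormone of protein restriction, had log2 fold changes of 2.56 ± 0.40, adjusted p = 0.00071 in casein and 2.67 ± 0.44, adjusted p = 0.0035 in soy, and 2.10 ± 0.39, adjusted p = 0.036 against Soy-20%. *Acsl5*, an acyl-CoA synthetase, had -0.69 ± 0.12, adjusted p = 0.00028 in casein, and *Slc22a5*, the carnitine importer, 1.02 ± 0.17, adjusted p = 0.0012 in soy. Without Soy-20% + SAA libraries 3 to 6 the soy calls of *Fgf21* and *Slc22a5* were lost, at 1.92 (adjusted p = 0.27) and 0.78 (adjusted p = 0.067).

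Among the other genes of ketone body handling, *Slc16a1*, a carrier of ketone bodies and lactate, rose in casein, 0.51 ± 0.09, adjusted p = 0.00026. *Bdh2*, a cytosolic dehydrogenase, fell in casein, -1.41 ± 0.12, adjusted p = 7.9e-08, and in soy had -0.25 ± 0.11, adjusted p = 0.14, a difference of -1.17 ± 0.17, adjusted p = 0.00013 that was also called without Soy-20% + SAA libraries 3 to 6.

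Under casein restriction, of 26 other peroxisomal genes 2 rose and 10 fell, and of 18 other mitochondrial genes tested 0 rose and 10 fell, where 11.4% of all genes rose and 13.2% fell. Without Cas-20% livers 1 to 3 these were 2 and 9 of the 26 and 0 and 10 of the 18, and without livers 4 to 6 they were 7 and 8, and 4 and 8. Between the restricted diets 11 of the 26 were lower in Cas-5% and 0 higher, where 6.13% of all genes were lower. Soy restriction gave 4 higher and 3 lower of the 26, and 1 higher and 7 lower of the 18, where 7.44% of all genes were higher and 8.25% lower. Without Soy-20% + SAA libraries 3 to 6, 0 of the 26 were called, and 1 of the 18 was higher and 1 lower, where 2.65% of genes were called. *Crot*, which makes carnitine esters of the chains shortened in peroxisomes, rose in casein, 1.04 ± 0.13, adjusted p = 3.7e-05, and in soy, 0.58 ± 0.11, adjusted p = 0.0044, the latter lost without Soy-20% + SAA libraries 3 to 6 (adjusted p = 0.17). *Pecr* and *Pex16*, a peroxisomal reductase and a protein of peroxisome assembly, fell in casein, -0.64 ± 0.08, adjusted p = 4.6e-06 and -0.62 ± 0.09, adjusted p = 8e-05. The mitochondrial genes that fell included *Hsd17b10*, *Pcca* and *Mmut*, known for the breakdown of branched-chain amino acids and propionate, with -1.27 ± 0.09, adjusted p = 1.1e-08, -0.69 ± 0.07, adjusted p = 1.2e-06 and -0.58 ± 0.07, adjusted p = 2.6e-06 in casein. The others that fell in casein were *Echs1*, *Acad9*, *Acad10*, *Acadsb*, *Pccb*, *Mcee* and *Acacb*. *Acacb* encodes an acetyl-CoA carboxylase whose product inhibits fatty acid entry into mitochondria, so its fall is not that of an oxidation enzyme. With such genes in the list, its counts do not describe fatty acid oxidation alone. *Hsd17b10* also fell in soy, -0.71 ± 0.10, adjusted p = 0.00049, a call that held without those libraries (adjusted p = 0.015), and against Soy-20%, -0.48 ± 0.08, adjusted p = 0.0041. The medians of the mitochondrial list were −0.33 in casein and −0.20 in soy, against 0.02 and −0.01 over all genes. Of the 12 other PPARA targets 8 were below in Cas-20% livers 1 to 3 and 2 above, as were 13 and 2 of the 26 peroxisomal and 6 and 0 of the 18 mitochondrial genes, where 10.9% of all genes were below and 11.1% above.

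PPARA binds, with its partner RXR, to a direct repeat of AGGTCA spaced by 1 base. RefSeq promoters of GRCm38.p6, from 250 bases before to 50 after the start of the gene, were found for 31 of the 35 members. The repeat, 2 copies of AGGTCA with any base (N) between them, was found on either strand in 0 of 31, and in 0.0481% of 27025 genes. A looser form, with AGGNCA in place of each copy, was found in 1, *Fabp1*, and in 0.451% of genes. The hexamer AGGTCA, which both forms can hold, was found in 7 of 31 and in 18.1% of genes. A match is only a description of the letters in this window. The promoters of *Acot1* (chr12:84009252-84009551, forward strand) and *Acot2* (chr12:83987611-83987910, forward strand), whose genes moved most under casein restriction, are shown beside that of *Fabp1* (chr6:71199629-71199928, forward strand), whose capitals mark the match, on the opposite strand and 67 bases before the start.
Acot1: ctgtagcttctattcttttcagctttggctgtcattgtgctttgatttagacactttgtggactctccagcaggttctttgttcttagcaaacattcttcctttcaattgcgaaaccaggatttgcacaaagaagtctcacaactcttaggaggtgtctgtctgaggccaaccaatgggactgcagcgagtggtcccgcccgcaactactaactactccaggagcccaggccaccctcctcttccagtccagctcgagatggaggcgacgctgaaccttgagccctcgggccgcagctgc
Acot2: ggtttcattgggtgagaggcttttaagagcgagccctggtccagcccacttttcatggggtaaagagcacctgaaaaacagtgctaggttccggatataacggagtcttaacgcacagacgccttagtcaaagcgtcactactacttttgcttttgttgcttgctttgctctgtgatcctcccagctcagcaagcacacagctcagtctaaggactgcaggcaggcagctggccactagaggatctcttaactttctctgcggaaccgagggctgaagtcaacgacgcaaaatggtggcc
Fabp1: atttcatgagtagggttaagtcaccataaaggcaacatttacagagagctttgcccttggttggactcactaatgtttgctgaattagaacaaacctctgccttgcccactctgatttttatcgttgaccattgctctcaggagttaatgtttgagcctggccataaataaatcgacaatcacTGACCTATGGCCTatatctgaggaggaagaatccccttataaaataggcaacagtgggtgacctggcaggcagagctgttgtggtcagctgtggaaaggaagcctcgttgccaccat

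*Fabp1*, the holder of the looser repeat, overlapped between the casein diets, with 35479.7, 70484 and 86939.9 normalized counts (lowest, median, highest) in Cas-20% and 67051, 74036 and 95588 in Cas-5%. *Acot1*, with neither repeat in this window, gave the largest log2 fold change of the 35 under casein restriction. *Acot1* to *Acot4* lie together on chromosome 12, between 83987861 and 84060402. Of the 50-base stretches in the last 500 bases of their transcripts, 7.21% of those of *Acot1*, 0.443% of *Acot2*, 5.55% of *Acot3* and 5.21% of *Acot4* also occurred in another gene. For *Eci2* the share was 9.85%, with *Eci3*, and for *Hadhb* 35.4%, with the genes *Gm13910* and *Gm9108*, so counts of these members may hold reads of their relatives. No such stretch was shared by 23 of the 35 members.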

How the data were processed

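Liver RNA of 30 mice was made into QuantSeq 3′ libraries, which count reads near the 3′ end of transcripts, and the authors aligned and counted the reads with the Lexogen QuantSeq pipeline on GRCm38. The deposited raw counts are whole reads per gene, and the second deposited table is a normalized signal that the authors made by dividing counts by DESeq2 size factors (DESeq2 1.30 in R 4.0.3 per the submitters' processing notes). Raw counts were tested and the signal was used for levels. The aligner, the annotation release and the use of strand in counting are not given in the sources used here. Coordinates of all 35 members equal GENCODE M21.

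Samples were grouped by diet as labelled. In R 4.3.3, edgeR 4.0.16 was run on the groups compared, with filterByExpr, TMM and the robust quasi-likelihood F test, two-sided, and Benjamini-Hochberg adjustment over all genes tested. Genes were called at an adjusted p of 0.05 or less. Fold changes are on the log2 scale with ± SE, and means with ± SD. The scripts were tested on simulated data. Alternatives were DESeq2 1.42.0, its size factors in edgeR, no filter, the replicate number as a block, 1 fit of 30 livers, each library's GC slope as a covariate, leaving out libraries, and taking Soy-20% as control for soy. Leaving out Cas-20% libraries 1 to 3 or 4 to 6 together, and Cas-20% against Soy-20% (also without Cas-20% libraries 1 to 3 and Soy-20% library 3), were chosen after seeing the data. The GC slope was fitted over 11967 genes with GENCODE M21 transcripts. Counting error is small for most members, the lowest of which, *Pdk4*, had a mean of 40.8 raw counts per liver.

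The members and gene lists were chosen with earlier results of these data known. Named members were up to 4 per step with the smallest adjusted p in the restriction comparisons, any called in the difference of effects or without overlap between diets, and the most abundant where a step had none called. Of each pathway list up to 3 genes were named by the same measure. A result of the ketogenesis list is not reported here. *Crat*, *Acaa1b*, *Acaa2*, *Acot3*, *Acot8*, *Abcd3*, *Hadh*, *Hadhb* and *Cyp4a14* fall outside this rule. Members of marker lists were summed as CPM. Python used pandas 2.3.3, numpy 2.4.6 and matplotlib 3.10.9.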

Additional observations from a re-analysis of the deposited data

Results flagged for a closer look

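Of 175 sets of 6 livers, 1 for each member and diet, 18 held a liver whose gap to its nearest neighbour exceeded Dixon's 95% critical value for a group of that size. Chance marks about 1 set in 20. Of the 18, 11 were Soy-20% liver 3, high each time. That liver had 13982.3 normalized counts of *Acsl1* (others 8973.5 to 10599.9), 2535.4 of *Cpt1a* (1648.1 to 1915.0), 2359.5 of *Slc25a20* (1569.9 to 1806.0), 1024.0 of *Cpt2* (762.8 to 816.2) and 2170.6 of *Eci2* (1666.8 to 1788.2). It had 1825.9 of *Etfdh* (1364.9 to 1519.4), 5014.5 of *Decr2* (3494.2 to 4020.2), 786.8 of *Acot1* (304.3 to 454.6), 356.7 of *Acot2* (125.4 to 197.9), 382.9 of *Acot3* (59.6 to 122.4) and 828.0 of *Acot12* (656.6 to 698.4). Its GC slope of −0.016 lay within the range of the other libraries.

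In Soy-20% + SAA, liver 4 was low in *Hadh*, at 3791.2 where the others held 4850.1 to 5416.2, and high in *Eci2*, at 2134.2 where they held 1551.9 to 1647.7. Liver 1 was high in *Pdk4*, at 59.2 where the others held 3.9 to 17.7. In Soy-10%, liver 4 was low in *Acot4*, at 98.0 against 163.5 to 191.9, and in *Acot8*, at 261.8 against 325.9 to 338.2, and liver 1 was high in *Decr2*, at 4468.3 against 3743.3 to 3990.0. In Cas-5%, liver 6 was high in *Acot3*, at 461.2 against 134.5 to 239.6.

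The effects of casein and soy restriction differed for *Hadha*, by 0.38 on the log2 scale by the interaction test of edgeR, adjusted p = 0.024. The call was lost without Soy-20% + SAA libraries 3 to 6.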

How the results depend on the processing

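The counts of called members were 7 for casein restriction, 9 for soy restriction, 0 against Soy-20%, 0 for sulfur amino acid addition, 7 between the restricted diets, 0 between the control diets and 1 for the difference of effects. With the GC slope as a covariate they were 4 for casein and 0 for soy. Without Cas-20% libraries 1 to 3, casein gave 7 (3 higher and 4 lower), and without libraries 4 to 6 it gave 22, all higher, and without libraries 1 to 3 the difference gave 4. Cas-20% against Soy-20% without Cas-20% libraries 1 to 3 and Soy-20% library 3 gave 1. Without Soy-20% + SAA libraries 3 to 6, soy gave 1 and the difference 0, and taking Soy-20% as the control for soy also gave 0 for the difference. DESeq2 gave 14 for soy, 5 for addition, 7 for the control diets and 4 for the difference. A fit of all 30 livers gave 10 for addition, 2 for the restricted diets, 12 for the control diets and 2 for the difference. With the replicate number as a block (replicate block), 10, 11, 0, 0, 10, 3 and 1 members were called in the order above. Same-numbered livers did not deviate together, with correlations from −0.155 to 0.183, so the numbers were not read as pairs. Leaving out 1 liver gave 4 to 10 for casein, with 4 without Cas-20% liver 1 or 2 or Cas-5% liver 3 or 4. It gave 6 to 15 for soy, 0 to 2 against Soy-20%, 0 to 9 for addition, 5 to 9 for the restricted diets, 0 to 8 for the control diets and 1 to 8 for the difference. Where a setting moved a count, the cause was not tested. None of the 24 calls of a member in the 7 comparisons reversed its direction under the alternatives run for it. Reads near the 3′ end cannot separate isoforms, and members that share 3′ sequence with relatives carry an assignment error that depth does not reduce.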
